A study of Mus musculus with 6 samples.

Results

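ErbB receptors and their ligands were examined in Lgr5-positive and Lgr5-negative cells of the mouse mammary gland. The set held 10 genes: the receptors Egfr, Erbb2, Erbb3 and Erbb4 and the ligands Ereg, Btc, Hbegf, Tgfa, Nrg1 and Epgn. The Egfr ligand Areg was left out of the set, and its values are given further below. The 10 genes were chosen by name, with earlier results of these data known. On the array, 12 of the 55681 probes mapped to them through the RefSeq transcript that the array files give for each probe. By the same route 27509 probes carried 1 of 20887 gene symbols. Of the 12 probes, 10 probes for 8 genes were bright enough to be tested, whereas Erbb4 and Btc were not.

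Each of the 6 samples was hybridised to its own Agilent 2-colour array, and there were 3 arrays per group. The Lgr5-positive cells were the EGFP-positive part of the lineage-negative, CD24-positive, CD29-high sort gate named P4, and the Lgr5-negative cells were the EGFP-negative part of that gate. Both came from virgin mice of strain C57/B6 with the genotype lgr5-egfp-ires-creert2, so both carried the allele that reports Lgr5 as EGFP. The labels give neither the age of the mice nor whether a sample pooled several of them. Where nothing says that samples came from separate mice, the p-values measure only the spread between these samples, which may be technical. On every array the sorted cells' RNA carried Cy5 and a common reference, universal mouse RNA pooled from 11 cell lines, carried Cy3. Values are given as log2 ratios of Cy5 over Cy3 after normalization within the array. A ratio of 0 therefore means as much signal as in the reference mix, and ratios of different probes are not compared as levels.

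ErbB receptors are tyrosine kinases of the cell surface that pair on binding a ligand and start the ERK and PI3K cascades. Egfr binds Egf, Tgfa, Areg, Ereg, Btc, Hbegf and Epgn, and Erbb3 and Erbb4 bind the neuregulins. Erbb2 has no known soluble ligand and acts as a partner of the others, and Erbb3 has little kinase activity of its own. The ligands are made as membrane-bound precursors and are released by ADAM proteases. In the mouse mammary gland Egfr signalling is needed for duct growth, with Areg as its main ligand, and Erbb4 is needed for milk-producing alveoli.

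Arrays with the same replicate number resembled each other, and those numbers are treated as pairs here. The median Cy5 signal was 137 to 169 on the Lgr5-positive arrays and 200 to 278 on the Lgr5-negative arrays, over a background of 64 to 76, and 0 spots were saturated. Lgr5, the sorted gene, had log2 ratios of 4.24, 5.36 and 5.01 in Lgr5-positive replicates 1 to 3, against 2.84, 4.04 and 3.31 on the Lgr5-negative ones. Its difference of 1.47 had an adjusted p of 0.43 in limma with the group alone and of 0.0013 with the replicate number as a block. Basal markers had mean log2 ratios over 10 of them of 3.29 to 3.59 on the Lgr5-positive arrays and 2.97 to 3.14 on the Lgr5-negative arrays. By gene they ran from Itgb1 (-0.24 in Lgr5-positive and -0.40 in Lgr5-negative cells) to Cdh3 (6.91 and 5.71). Of these 10, 3 were higher and 0 lower in Lgr5-positive cells with the block, where 7.73% of all genes passed in either direction. Among 8 blocked settings, Cdh3 passed in 5, Oxtr in 3 and Krt17 in 2. Endothelial markers had mean log2 ratios over 11 of them of 1.23 to 2.27 on the Lgr5-positive arrays and 3.10 to 3.73 on the Lgr5-negative arrays. Of the 11, 8 were lower and 0 higher in Lgr5-positive cells with the block. Hormone-sensing luminal markers had means of 0.29 to 0.62 on Lgr5-positive arrays and 1.13 to 1.37 on Lgr5-negative arrays, with 6 of 10 lower with the block. Luminal progenitor markers had means of 2.12 to 2.54 on Lgr5-positive arrays and 2.28 to 2.99 on Lgr5-negative arrays, with 1 of 8 higher and 3 lower with the block. Of fibroblast markers 1 of 8 was higher and 4 were lower with the block, and of pericyte and leukocyte markers 3 of 6 and 1 of 9 were lower. With the group alone, 3 of the 11 endothelial markers were lower, and no marker of the other cell types passed. The part of these cell types in the values of the ErbB genes was not tested. In such bulk RNA, fewer cells of a type and less RNA per cell cannot be told apart.

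No tested receptor or ligand of the set passed the test between the fractions. Areg, which is outside the set, was lower in Lgr5-positive cells and passed with the replicate block but not with the group alone. In limma's moderated test with the group alone, 0 of the 10 tested probes passed an adjusted p of 0.05, where 0.101% of all 34528 tested probes did. With the replicate block 0 of 10 passed too, where 4.41% of all probes did. At an unadjusted p under 0.05 there were 0 of 10 with the group alone (5.35% of all probes) and 3 of 10 with the block (17.0% of all probes). The groups overlapped in each of the 10 probes, where 9.10% of all tested probes had groups that did not overlap. The difference had 1 direction in all 3 pairs in 3 of the 10 probes, where 40.0% of all probes had it. The median log2 fold change of the 10 probes was 0.12, against 0.03 for all probes. Since a miss of the threshold does not show equal levels, the 95% interval of each difference is given with each gene. These intervals are per probe and not widened for the number of probes.

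**Figure D1:**
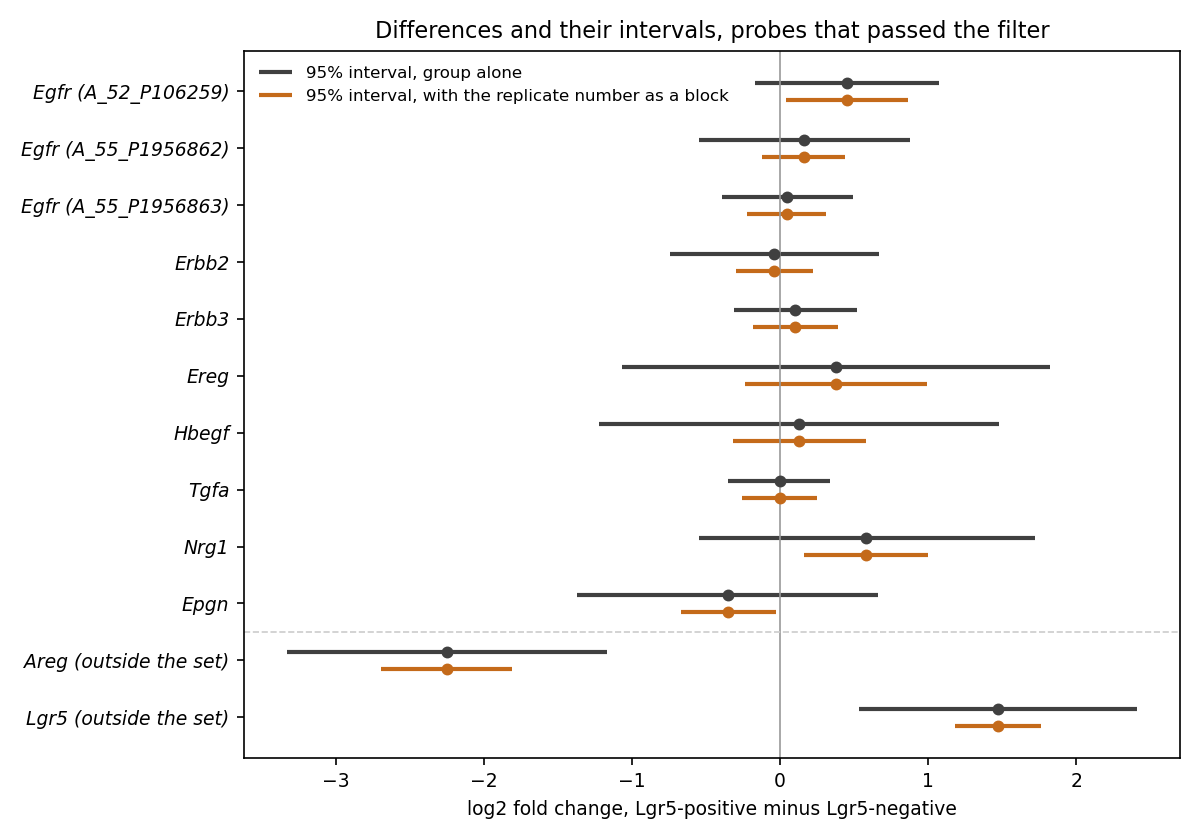
Log2 fold change of each tested probe (Lgr5-positive minus Lgr5-negative; points) with its 95% interval from limma with the group alone (dark) and with the replicate number as a block (orange), n = 3 arrays per group. Areg and Lgr5 stand under the dashed line for scale. Group-alone intervals of the 10 ErbB probes all include 0, and with the block those of 1 Egfr probe, Nrg1 and Epgn do not.

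Among the receptors, Egfr was read by 3 probes. Probe A_52_P106259, designed on transcript NM_207655, is printed as 10 spots on each array. Its log2 ratios were 0.62, 0.87 and 0.94 in Lgr5-positive replicates 1 to 3, against 0.15, 0.90 and 0.04 on the Lgr5-negative ones. The Lgr5-negative array of replicate 2 thus lay among the Lgr5-positive values, and the other Lgr5-negative arrays lay below them. The mean was 0.81 ± 0.17 in Lgr5-positive cells and 0.36 ± 0.47 in Lgr5-negative cells (SD, n = 3 each). The difference of 0.45 had a standard error of 0.26 and a limma adjusted p of 1, with an interval of -0.17 to 1.07. With the replicate block the standard error was 0.18, the interval 0.04 to 0.86 and the adjusted p 0.25. The spots of this probe differed by a standard deviation of only 0.05 to 0.09 within an array, so the spread between arrays was larger than that between spots. Under median centring in place of loess its difference was -0.02.

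The other Egfr probes, A_55_P1956863 and A_55_P1956862, belong to transcript NM_007912, a separate RefSeq transcript of the gene. Probe A_55_P1956863 had log2 ratios of 0.78, 0.63 and 0.34 on the Lgr5-positive arrays, against 0.74, 0.47 and 0.40 on the Lgr5-negative ones, and the groups lay on top of each other. Its difference was 0.05, with an interval of -0.39 to 0.49 with the group alone and -0.22 to 0.31 with the block. Probe A_55_P1956862 had -0.01, 0.57 and -0.20 on the Lgr5-positive arrays, against -0.36, 0.47 and -0.24 on the Lgr5-negative ones. Replicate 2 was the high array in both groups, and the difference was 0.16 (interval -0.55 to 0.88 with the group alone, -0.12 to 0.44 with the block). The probe of NM_207655 minus the mean of these probes was 0.46 ± 0.36 in Lgr5-positive cells and 0.11 ± 0.27 in Lgr5-negative cells (SD, n = 3 each), and a two-sided exact permutation test gave p = 0.3, where 3 arrays against 3 cannot go below 0.1. The test, which did not use the pairs, is therefore too small to show whether the gap between these probes differs between the fractions.

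Erbb2, the ligand-less partner, was the receptor with the closest agreement within pairs. Probe A_52_P49250, also printed as 10 spots, had log2 ratios of -0.24, -0.57 and -1.09 in Lgr5-positive replicates 1 to 3, against -0.18, -0.63 and -0.99 on the Lgr5-negative ones. The pairs differed by -0.07, 0.05 and -0.10, while their means ranged over 0.83. The mean was -0.64 ± 0.43 in Lgr5-positive cells and -0.60 ± 0.41 in Lgr5-negative cells (SD, n = 3 each). The difference was -0.04, and the blocked interval of -0.30 to 0.22 corresponds to 0.811-fold to 1.17-fold. With the group alone it was -0.74 to 0.67. Under the block with median centring, a combination chosen after the data were seen, Erbb2 was at -0.38 with a limma adjusted p of 0.043, at a setting where the median of all probes was -0.21 and 8661 of them passed.

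Erbb3, the kinase-poor neuregulin receptor, was dim. The probe read 127, 172 and 158 units of Cy5 brightness in Lgr5-positive replicates 1 to 3 and 199, 219 and 208 in Lgr5-negative replicates 1 to 3, and it was well above background on 2 of 3 arrays in each group, with replicate 3 the exception in both. Its log2 ratios were 0.13, 0.47 and 0.08 on the Lgr5-positive arrays, against 0.22, 0.19 and -0.04 on the Lgr5-negative ones. The values of the groups interleaved, with a difference of 0.10 (interval -0.31 to 0.52 with the group alone, -0.18 to 0.39 with the block). Erbb4, the receptor of alveolar development, was not well above background in Cy5 on any of the 6 arrays, nor in Cy3. Its Cy5 signal was 75 to 82 on the Lgr5-positive arrays and 79.5 to 84.5 on the Lgr5-negative arrays, beside local backgrounds of 65 to 79. No fold is read for it, since neither group had a measured signal.

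**Figure D2:**
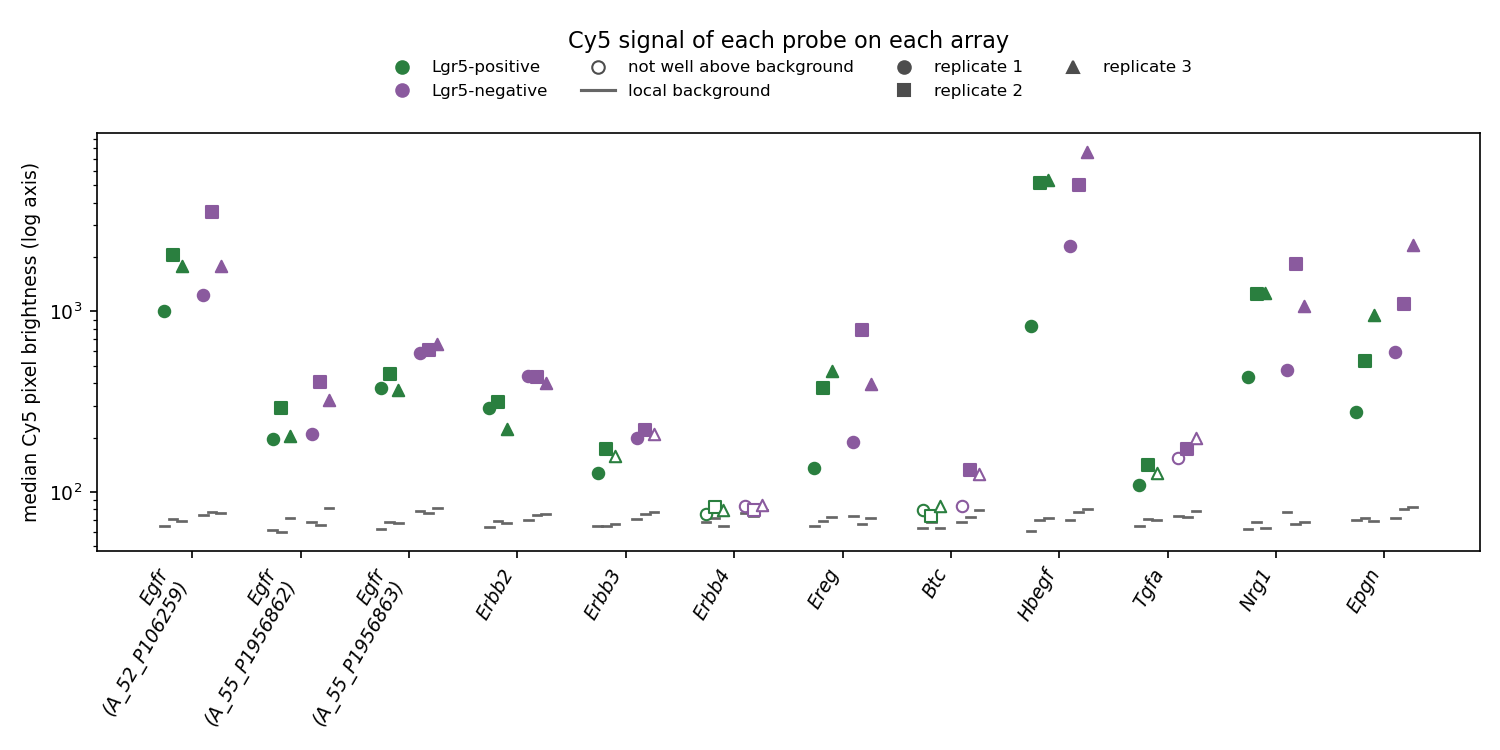
Median Cy5 pixel brightness (log axis) of each of the 12 probes on each array, Lgr5-positive left of Lgr5-negative, with marker shapes for the replicate number, short lines for the local background and open markers where most spots of the probe were not well above background. Markers are open for Erbb4 on all 6 arrays and for Btc on 5 of 6, while Hbegf, Nrg1 and the brightest Egfr probe lie far above it.

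Among the ligands, Nrg1, the neuregulin that activates Erbb3 and Erbb4, had the largest difference. Its probe A_55_P1985433 had log2 ratios of -0.51, 0.68 and 0.72 in Lgr5-positive replicates 1 to 3, against -0.97, 0.50 and -0.39 on the Lgr5-negative ones. The Lgr5-positive array was the higher one in each pair, by 0.47, 0.17 and 1.11, although the groups overlapped because replicate 1 was low in both. The mean was 0.30 ± 0.70 in Lgr5-positive cells and -0.29 ± 0.74 in Lgr5-negative cells (SD, n = 3 each). The difference of 0.58 had a standard error of 0.47 and a limma adjusted p of 1 with the group alone (interval -0.55 to 1.72). With the replicate block the standard error was 0.18, the interval 0.16 to 1.00 and the adjusted p 0.14. Under median centring in place of loess the difference was 0.06, at a setting that puts the median of all probes at -0.21 instead of 0.03. Before normalization the Cy5 brightness of Nrg1 read 433, 1250 and 1270 in Lgr5-positive replicates 1 to 3, against 473, 1840 and 1070 in Lgr5-negative replicates 1 to 3. These readings are not scaled for the brighter Lgr5-negative arrays, and in the quantile-normalized Cy5 channel without the reference the difference was 0.65.

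Epgn, the Egfr ligand epigen, was the ligand with a lower value in the Lgr5-positive array of every pair. Its log2 ratios were 1.02, 1.66 and 2.08 on the Lgr5-positive arrays, against 1.32, 1.77 and 2.73 on the Lgr5-negative ones. The pairs differed by -0.30, -0.10 and -0.65, while replicate 3 was highest in both groups and the groups overlapped. The mean was 1.59 ± 0.54 in Lgr5-positive cells and 1.94 ± 0.72 in Lgr5-negative cells (SD, n = 3 each). The difference of -0.35 had a standard error of 0.42 and an adjusted p of 1 in limma with the group alone (interval -1.37 to 0.66), and an interval of -0.67 to -0.03 with an adjusted p of 0.25 with the block. The Cy3 channel of this probe, which holds the common reference RNA, read 188, 225 and 399 in Lgr5-positive replicates 1 to 3, against 294, 326 and 335 in Lgr5-negative replicates 1 to 3. In the quantile-normalized Cy5 channel without the reference, the difference was -0.44. Under median centring in place of loess it was -0.52, at a setting that puts the median of all probes at -0.21. With the block added, a combination chosen after the data were seen, its limma adjusted p rounded to 0.05 and did not pass. Without Lgr5-negative replicate 3 alone, which leaves its Lgr5-positive partner in the fit, the difference was 0.05. With the block it was -0.38 without pair 1, -0.48 without pair 2 and -0.20 without pair 3.

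Ereg and Hbegf varied most between replicate numbers. Ereg, the ligand epiregulin, had log2 ratios of -2.45, -1.25 and -0.72 in Lgr5-positive replicates 1 to 3, against -2.79, -0.84 and -1.93 on the Lgr5-negative ones. The pairs differed by 0.34, -0.41 and 1.20, and replicate 1 was lowest in both groups. Its difference of 0.38 had a standard error of 0.60 and an interval of -1.07 to 1.82 with the group alone, and of -0.24 to 0.99 with the block, or 0.848-fold to 1.99-fold. Hbegf, a heparin-binding ligand, had 0.62, 2.15 and 2.64 on the Lgr5-positive arrays, against 1.08, 1.59 and 2.34 on the Lgr5-negative ones. The Lgr5-positive array was lower in pair 1 and higher in pairs 2 and 3, and replicate 1 was again the lowest in both groups. The difference was 0.13, with an interval of -1.22 to 1.48 with the group alone and -0.32 to 0.58 with the block.

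Tgfa and Btc were near the limit of detection. Tgfa, a ligand of Egfr alone, is printed as 10 spots, and most of these were well above background on 2 Lgr5-positive arrays and 1 Lgr5-negative array. Its log2 ratios of -0.04, 0.14 and 0.04 on the Lgr5-positive arrays, against -0.03, 0.17 and 0.01 on the Lgr5-negative ones, gave a difference that rounds to 0, with an interval of -0.35 to 0.34 with the group alone and -0.26 to 0.25 with the block. The offset of 50 added before taking logs draws the ratios of dim spots toward 0. Btc, betacellulin, which binds Egfr and Erbb4, was well above background in Cy5 only on the Lgr5-negative array of replicate 2, with signals of 79, 73.5 and 83.5 on the Lgr5-positive arrays and 84, 132 and 126 on the Lgr5-negative arrays. No fold is read from these signals, since the Lgr5-positive group was not measured on any array and the Lgr5-negative group on only 1 of 3. In the fit without a filter on dim probes Btc was at -0.09 and Erbb4 at 0.17, each with a limma adjusted p of 1. These values rest on signals mostly not well above background and are not read as fold changes.

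**Figure D3:**
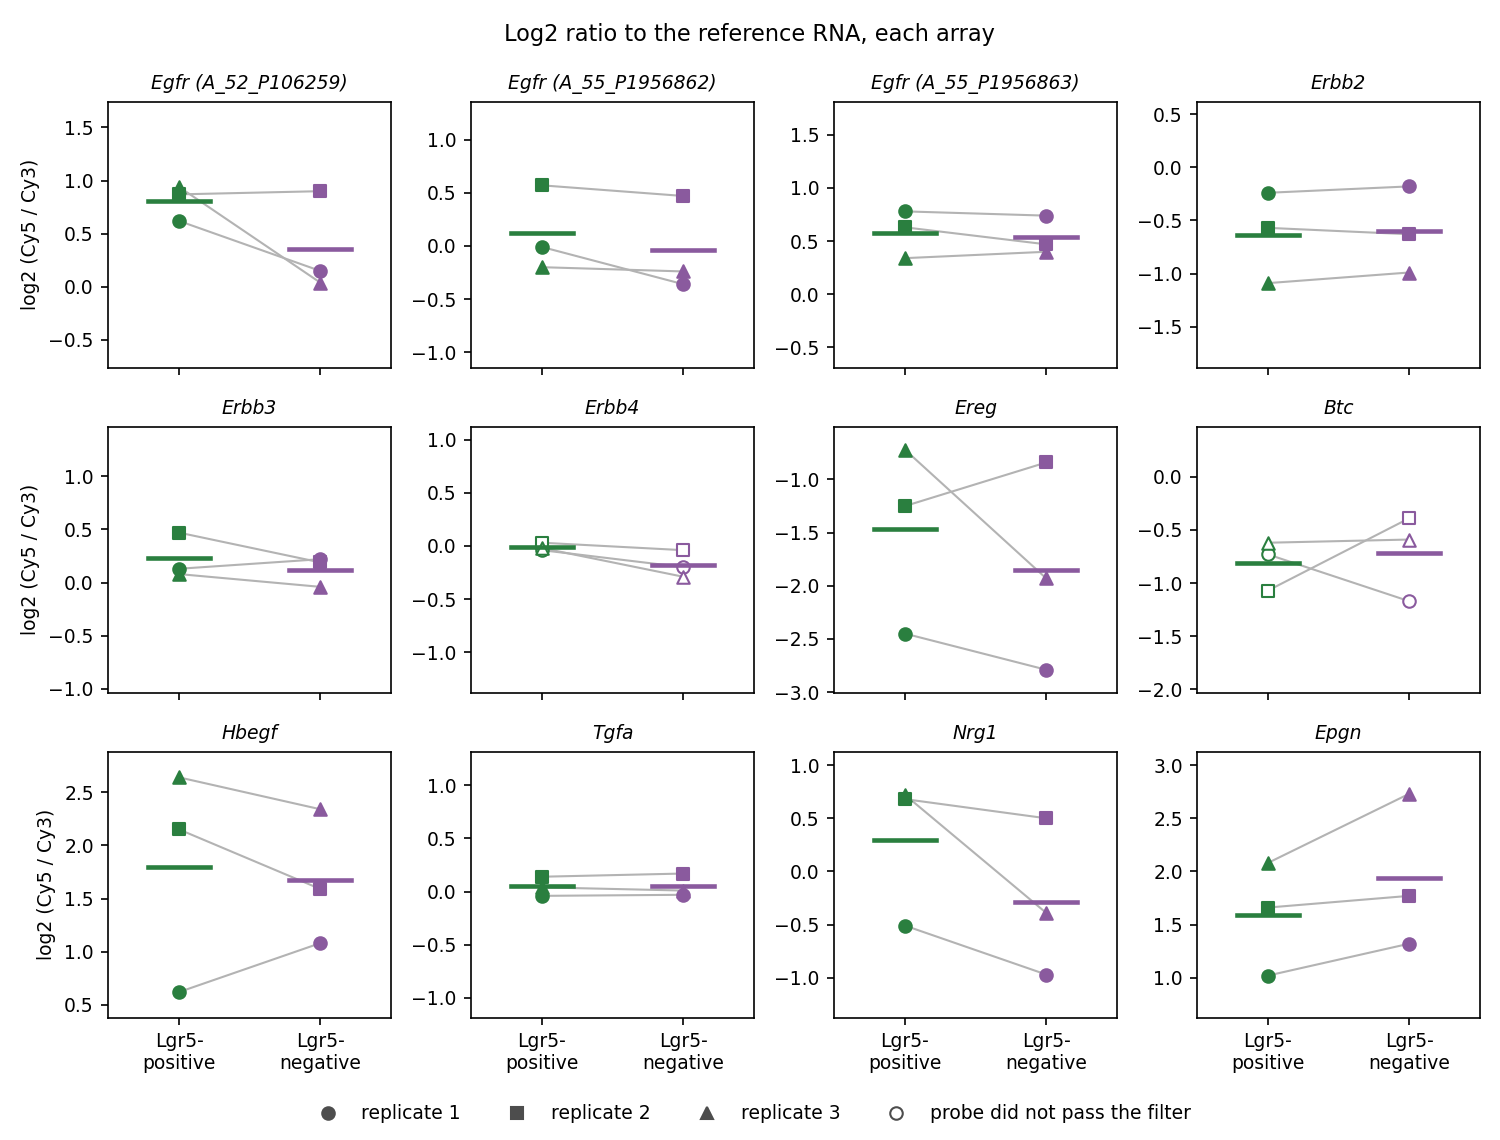
Log2 ratio of Cy5 over Cy3 of the 12 probes on each array, Lgr5-positive left of Lgr5-negative, with lines joining arrays of the same replicate number, thick bars for group means and open markers for probes that were not tested. Hbegf, Ereg and Epgn spread more between replicate numbers than between the groups, and Nrg1 is higher in the Lgr5-positive array of each pair.

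The means of the 3 pairs ranged over more than the largest difference within a pair in 9 of the 10 tested probes, the exception being the Egfr probe A_52_P106259 (0.50 against 0.91), where 62.5% of all tested probes had this. In a test chosen after the data were seen, limma's moderated F test of the replicate number passed an adjusted p of 0.05 for 6 of the 10 probes, where 38.1% of all probes passed. These were Hbegf, with pair means of 0.85, 1.87 and 2.49 (adjusted p = 0.0045), Epgn with 1.17, 1.72 and 2.41 (adjusted p = 0.0037), Ereg with -2.62, -1.05 and -1.32 (adjusted p = 0.014) and Nrg1 with -0.74, 0.59 and 0.16 (adjusted p = 0.0074). Erbb2 (adjusted p = 0.0082) and the Egfr probe A_55_P1956862 (adjusted p = 0.011) were the others. The Egfr probes A_52_P106259 and A_55_P1956863, Erbb3 and Tgfa did not pass. What a replicate number stands for is not given in the sources used here.

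Areg, the Egfr ligand left out of the set, gave a scale for these intervals. In the RefSeq gene table of assembly GRCm38.p6 the genes Epgn, Ereg, Areg and Btc follow each other in that order with no other protein-coding gene between them. Areg had log2 ratios of -0.05, 1.53 and 0.48 in Lgr5-positive replicates 1 to 3, against 2.29, 3.23 and 3.20 on the Lgr5-negative ones, with no overlap. Its difference was -2.25 (limma adjusted p = 0.21 with the group alone, 0.0013 with the block), with a blocked interval of -2.69 to -1.81. The blocked intervals of its neighbours Epgn (-0.67 to -0.03) and Ereg (-0.24 to 0.99) did not reach that range. With the group alone the Areg interval was -3.33 to -1.17. The group-alone interval of Epgn (-1.37 to 0.66) overlapped it, and that of Ereg (-1.07 to 1.82) did not. Its neighbour Btc was too dim to be tested. The difference between Areg and its neighbours was not tested itself.

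Other genes of the pathway were read on 1 probe per gene in fits over 15682 genes. With the group alone 0 of the 81 tested genes of these lists passed in limma, where 0.612% of all genes did. With the block 7 of 81 passed, which is near the share of 7.73% over all genes. At an unadjusted p under 0.05 there were 8 of 81 with the group alone, where 8.19% of all genes did. Areg, which passed with the block, is in none of these lists and is not counted among the 81. Of the other ErbB ligands, Nrg2 was at 0.23 and Nrg4 at -0.03, and Egf and Nrg3 did not pass the filter. In the list of ligand shedding and trafficking, 1 of 11 genes rose and 1 fell with the block, and the median was -0.12, against 0.01 for all genes. Adam10, a sheddase that releases Btc in mouse cells, averaged -0.70 ± 0.46 in Lgr5-positive cells and 0.31 ± 0.82 in Lgr5-negative cells (SD, n = 3 each) and fell by 1.01 (adjusted p = 0.017 in the blocked limma fit). Adam19, a protease that can cleave neuregulin, averaged -0.88 ± 0.30 in Lgr5-positive cells and -1.55 ± 0.02 in Lgr5-negative cells (SD, n = 3 each) and rose by 0.67 (adjusted p = 0.044 with the block). The Adam19 call was lost under median centring (0.14, adjusted p = 0.41), with the scanner's own ratios (0.76, adjusted p = 0.071) and in limma without pair 1 (adjusted p = 0.11) or pair 3 (adjusted p = 0.093).

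In the signal relay list 0 of 30 tested genes rose and 1 fell with the block, with a median that rounds to 0. Nck1, an adaptor that links receptor kinases to the actin skeleton, averaged -0.26 ± 0.47 in Lgr5-positive cells and 0.89 ± 0.62 in Lgr5-negative cells (SD, n = 3 each) and fell by 1.15 (adjusted p = 0.0078 with the block in limma). Among 23 genes of feedback and receptor turnover 1 rose and 0 fell, with a median of 0.04. Lrig3, a membrane protein related to the ErbB inhibitor Lrig1, averaged 1.17 ± 0.11 in Lgr5-positive cells and 0.48 ± 0.18 in Lgr5-negative cells (SD, n = 3 each) and rose by 0.69 (adjusted p = 0.035 with the block). It did not pass under median centring (0.22, adjusted p = 0.21), with the scanner's ratios (0.77, adjusted p = 0.066) or without pair 3 (adjusted p = 0.10).

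Among 15 genes of ERK-responsive transcription 1 rose and 2 fell with the block, with a median of 0.03. Ccnd1, the cyclin of G1 entry, averaged -1.85 ± 0.03 in Lgr5-positive cells and 0.16 ± 0.94 in Lgr5-negative cells (SD, n = 3 each) and fell by 2.01 (adjusted p = 0.014 in the blocked limma fit). Jun, a subunit of AP-1, fell by 0.58 (adjusted p = 0.033) and Etv4, an ETS factor, rose by 0.69 (adjusted p = 0.022). A second Etv4 probe was at 0.34 and did not pass. Jun and Etv4 did not pass with the scanner's ratios (adjusted p of 0.093 and 0.074), nor without pair 3 (adjusted p of 0.10 and 0.068), and Etv4 did not pass under median centring (0.23, adjusted p = 0.17). Median centring puts the median of all genes at -0.29, against 0.01 under loess. Without pair 2, none of the 7 genes passed in the blocked limma fit, with adjusted p of 0.072 for Nck1, 0.095 for Ccnd1, 0.11 for Adam19, 0.13 for Adam10 and Etv4, 0.16 for Lrig3 and 0.21 for Jun. Beside these falls, 8 of 11 endothelial and 6 of 10 hormone-sensing luminal markers were lower and 0 higher with the block. Also lower were 4 of 8 fibroblast, 3 of 6 pericyte, 3 of 8 luminal progenitor and 1 of 9 leukocyte markers. Higher were 1 fibroblast, 1 luminal progenitor and 3 of 10 basal markers. The part of these cell types in the falls was not tested.

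**Figure D4:**
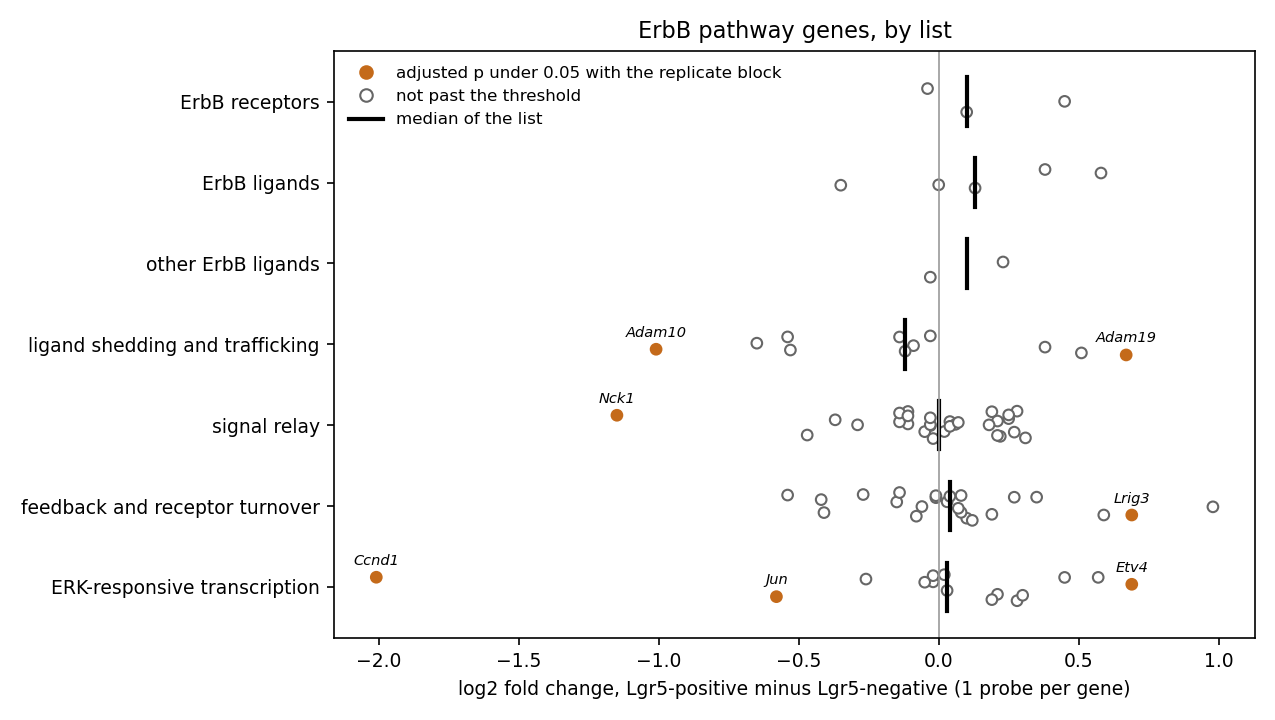
Log2 fold change (Lgr5-positive minus Lgr5-negative) of the tested genes of 7 ErbB pathway lists, 1 probe per gene, with a bar at each list's median. Filled points passed an adjusted p of 0.05 in the blocked limma fit, which were 7 genes, and vertical positions within a list are arbitrary. Areg is not in these lists and is not shown.

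By likeness of profile across the 6 arrays, the genes closest to the Egfr probe A_52_P106259 were Efna5, Cryzl1 and Chrdl2, with root mean square differences of 0.0936, 0.102 and 0.103 between log2 ratios centred on each gene's own mean. The genes closest to Nrg1 were Mark1 (0.0917), Snai2 (0.102) and Ubtd2 (0.103). These are the smallest values among 15681 genes compared over 6 arrays, and they describe the profile only.

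The 10 probes were also computed under other settings of normalization, filter, replicate block and samples, 26 of them for 6 probes, 25 for Erbb3 and Tgfa and 24 for the Egfr probes A_55_P1956862 and A_55_P1956863. Nrg1 stayed above 0 in each of its 26 settings, between 0.06 and 0.98, and the other 9 probes took both signs.

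**Figure D5:**
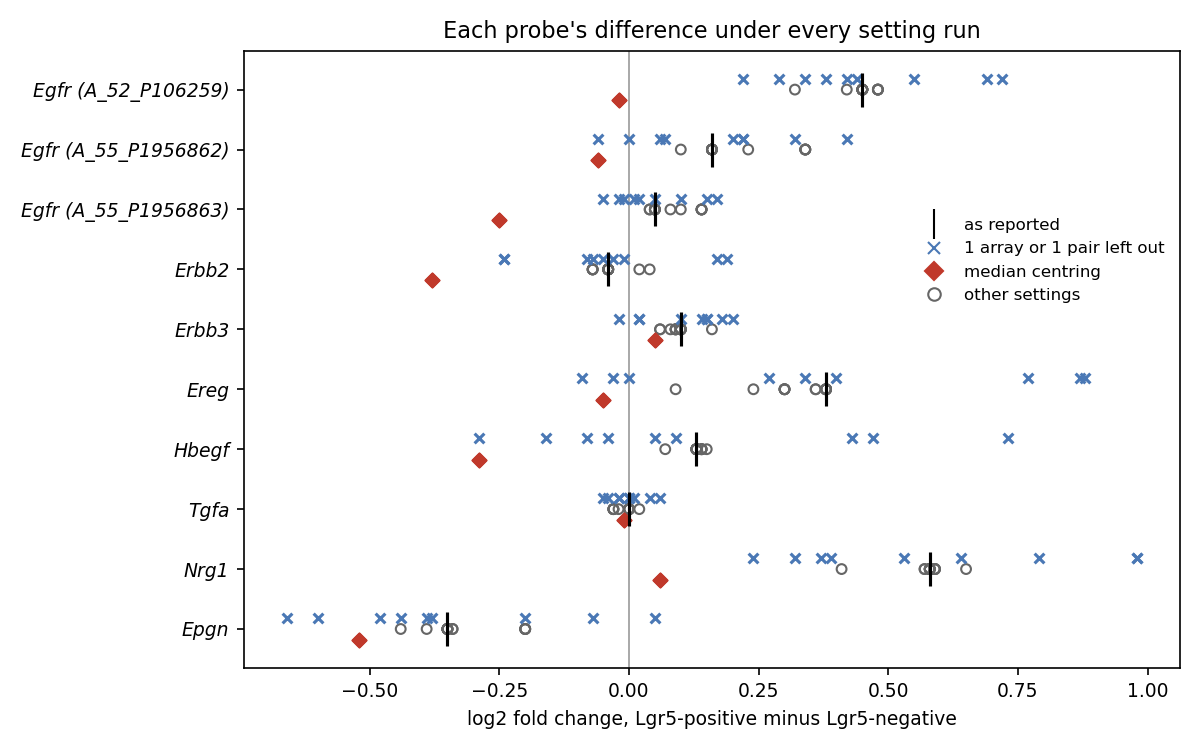
Log2 fold change (Lgr5-positive minus Lgr5-negative) of each tested probe as reported (black bar) and under the other settings, with crosses for 1 array or pair left out, diamonds for median centring and circles for the rest. Hbegf ranges from -0.29 to 0.73 and Tgfa from -0.05 to 0.06, and the diamonds lie left of the reported value.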

How the data were processed

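The authors deposited 1 Agilent Feature Extraction file per array, made with version 11.0 per the submitters' processing notes and, per the file headers, 11.0.1.1. Each deposited file gives every spot's median intensity and background in 2 colours, and the scanner software's log10 ratio of red (Cy5) to green (Cy3). A deposited table of log2 ratios, with a median of 0 for each probe and no stated origin, was used as an alternative. Intensities were corrected by normexp (offset 50) and normalized by loess within arrays in limma 3.58.1 under R 4.3.3, without control spots and outlier flags, and spots of a probe were averaged. Probes were kept where most spots were well above background in Cy5 on at least 3 of 6 arrays. This left 34552 probes, of which 24 with a flagged array value were dropped. The fractions were compared across all 34528 probes with lmFit and eBayes, group only, two-sided, with Benjamini-Hochberg adjustment at 0.05. The fitting code was run on data simulated from the blocked fit, which checks the code and does not test the pairing or the block. Same-numbered arrays deviated together (correlations of 0.804, 0.853 and 0.717 across probes; different numbers, -0.658 to -0.222), above the limit of 0.1 in each pair, so the numbers pair the arrays, and the replicate block is given beside the group-alone values. Fits over genes used the probe of highest mean brightness. In each pathway list the text names the genes past the threshold in either fit, at most 4, and failing any, the 2 of lowest p, and likeness was measured for the receptor and the ligand probe with the lowest p. The genes and lists were chosen with earlier results of these data known. RefSeq names come from assembly GRCm38.p6, while the arrays are annotated on mm9, so no coordinates are given.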

Additional observations from a re-analysis of the deposited data

How the results depend on the processing

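Of 26 other settings, 6 of the 10 tested ErbB probes were fitted in all and 4 in 24 or 25, which gave 254 values. Of the probes fitted, none passed the threshold in any setting except the replicate block with median centring, where 1, Erbb2, did (-0.38, adjusted p = 0.043 in limma); at that setting 8661 probes passed and the median over all probes was -0.21. Nrg1 was positive in each of its 26 settings (0.06 to 0.98), the Egfr probe A_52_P106259 ranged from -0.02 to 0.72 and Epgn from -0.66 to 0.05, while Hbegf (-0.29 to 0.73), Ereg (-0.09 to 0.88), Erbb2 (-0.38 to 0.19), Erbb3 (-0.02 to 0.20), Tgfa (-0.05 to 0.06) and the other Egfr probes (-0.06 to 0.42 and -0.25 to 0.17) took both signs. Of all probes, 35 passed with the group alone, 1522 with the replicate block, 2 with median centring, 13 in the Cy5 channel alone, 15 when all 6 arrays had to be well above background, 96 with 1 probe per gene and 96 with array weights. Leaving out 1 array gave 0 to 262 probes, with 262 when Lgr5-negative replicate 1 was absent, 32 without Lgr5-positive replicate 2 and 0 in the other 4 cases. With the block and without pair 1, 2 or 3 there were 1849, 632 and 1226. Combined settings, chosen after the data were seen, gave with the block 520 probes for the scanner's ratios, 529 for the deposited table, 1510 without background subtraction, 1660 without a filter and 1212 with 1 probe per gene. The cause of these changes was not tested. All arrays lay on 1 slide with 1 scan, so slide and scan were not run as blocks. Low signal limits Erbb3, Erbb4, Btc and Tgfa.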
